A study of Mus with 2 samples.

Results

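The genes described here are those of the surface proteins by which mouse hematopoietic stem cells (HSCs) are sorted. The 9 genes were chosen by symbol among the 27998 genes of the count matrices: Kit, Ly6a, Slamf1, Cd48 and Flt3, whose proteins define the LSK FLT3– CD150+ CD48– gate used for these cells, and Cd34, Procr, Cd27 and Esam, whose proteins are also used to enrich stem cells. Each symbol had 1 row. The libraries held HSCs of tibias and fibulas of Mx1-Cre Id2+/+ mice and of Mx1-Cre mice in which Id2, an inhibitor of DNA binding by bHLH proteins, had been deleted. Mx1-Cre is a recombinase under an interferon-inducible promoter that is switched on by pIpC, a synthetic double-stranded RNA, so it acts in more cells than HSCs, and both genotypes carried it. Per the paper, HSCs of both genotypes were purified after pIpC treatment. Each genotype was 1 library of 1000 sorted cells from 5 pooled mice aged 8 to 12 weeks, read as unique molecular identifiers (UMIs) on the 10x Genomics platform. With 1 library per genotype no difference between the genotypes has a replicate check, no test was possible, and every interval below is a 95% interval for counting error only. The group of the Id2-deleted sample was taken from its title and genotype field, although one clause of its labels gives bones of Id2+/+ mice.

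HSCs are recognised by the proteins they carry and by those they lack. c-Kit is the receptor for stem cell factor, and Sca-1, the product of Ly6a, is a lipid-anchored protein that interferon raises. CD150 (Slamf1) is present on HSCs, whereas its SLAM family relative CD48 and the cytokine receptor FLT3 appear as multipotent progenitors and committed cells form. CD34 is a sialomucin that is low on most adult mouse HSCs and present on activated HSCs and progenitors. The protein C receptor (Procr), the TNF receptor family member CD27 and the endothelial adhesion molecule ESAM are carried by HSCs to differing degrees. The gate reads proteins and the values below are RNA, so the RNA levels of the 5 gate genes describe cells already selected on the corresponding proteins.

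Each gene lies on the mm10 assembly (GRCm38, positions from RefSeq for GRCm38.p6) and is protein coding. Slamf1 (ENSMUSG00000015316, chr1:171767131-171801184) and Cd48 (ENSMUSG00000015355, chr1:171681245-171705258) are neighbours, separated by 61872 bp that hold 3 annotated genes, and Cd34 (ENSMUSG00000016494, chr1:194938821-194961292) is farther along the same chromosome. Kit (ENSMUSG00000005672, chr5:75574987-75656722) and Flt3 (ENSMUSG00000042817, chr5:147330741-147400489), which encode related receptor tyrosine kinases, share chromosome 5. Ly6a (ENSMUSG00000075602) is at chr15:74994877-74998031, Procr (ENSMUSG00000027611) at chr2:155751125-155755478, Cd27 (ENSMUSG00000030336) at chr6:125232620-125237136 and Esam (ENSMUSG00000001946) at chr9:37528089-37538319. Annotated non-coding genes overlap Ly6a, Flt3, Cd34 and Cd27, and whether counting used strand is not given in the sources used here, so reads of these pairs may not be separated. Ly6a belongs to a multigene family, and the treatment of reads shared with its relatives is not given either.

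There were 8612217 UMIs from the Id2+/+ and 17140713 from the Id2-deleted cells and droplets. Of the called cells, 333 and 625 were under the mitochondrial limit. Clustering without the 9 genes set apart 35 and 156 erythroid-like, 27 and 40 neutrophil-like and 9 and 13 haemoglobin-rich cells, which left 262 Id2+/+ and 416 Id2-deleted retained cells with a median of 7081 and 9663 UMIs. All 11 HSC markers, among them Hlf, Mecom and Meis1, were found in the retained cells of both libraries. The libraries stood apart. Of the retained clusters, one led by Ccl5, Dntt and Fos held 126 Id2+/+ and 2 Id2-deleted cells, and one led by Cd74 and Iigp1 held 6 and 161. A cluster led by Ccnb2 and Cenpa held 18 and 60, and one led by Vpreb3, Ung and Hells held 14 and 96. A cluster led by Pf4 and Gp1bb, megakaryocyte and platelet genes, held 31 and 69, with 7 of 7 markers of platelet-biased HSCs and 0 of 11 HSC markers raised. It had 1111 and 944 CPM of the HSC markers in sum, against 2422 and 2043 CPM over all retained cells. By the rule of at least 3 raised class markers, the Pf4/Gp1bb cluster was called platelet-biased HSC-like, but it is described below by its leading genes. The Ccl5/Dntt, Cd74/Iigp1, Ccnb2/Cenpa and Vpreb3/Ung clusters met no class rule and were left unnamed. The HSC-like cluster, with 8 of 11 HSC markers raised, held 67 and 28 cells. The libraries shared 1 cell barcode. Id2 itself had 22 UMIs in the retained Id2+/+ cells and 0 in the retained Id2-deleted cells. Levels are summed UMIs of all cells of a kind as CPM, the count a gene would have if all UMIs of the kind were scaled to the usual common total, and retained clusters with fewer than 10 cells in a library are not described for that library.

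Kit and Ly6a are the positive markers of the LSK gate. In the Id2+/+ library Kit was at 142 CPM (90.9 to 211) in the Vpreb3/Ung cluster, 141 CPM (118 to 167) in the Ccl5/Dntt cluster, 125 CPM (77.3 to 191) in the Ccnb2/Cenpa cluster and 120 CPM (88.5 to 158) in HSC-like cells. These intervals overlap, so no order can be read among them. Pf4/Gp1bb cells followed at 72.4 CPM (48.5 to 104), neutrophil-like cells at 43.3 CPM (26.5 to 66.9) and erythroid-like cells at 28.1 CPM (19.8 to 38.7), each overlapping the next. In the Id2-deleted library the HSC-like and the Ccnb2/Cenpa cells were both at 109 CPM and the Cd74/Iigp1 cluster at 103 CPM (86.7 to 122). The Vpreb3/Ung cluster was at 77.8 CPM (62.7 to 95.4), and Pf4/Gp1bb cells were at 38.9 CPM (28.9 to 51.1), below every other retained cluster and above the neutrophil-like cells at 15.1 CPM (7.56 to 27.1). Kit was spread thinly over the cells: no retained cell held more than 6 Kit UMIs in the Id2+/+ library or 4 in the Id2-deleted library. Erythroid-like cells had 1.06 and 0.56 Kit UMIs per cell in the Id2+/+ and Id2-deleted libraries, and retained cells 0.99 and 0.90, so the low CPM of erythroid-like Id2+/+ cells went with their larger UMI total and not with fewer Kit UMIs per cell.

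Ly6a separated the retained clusters more widely. It was at 178 CPM (140 to 224) in Id2+/+ HSC-like cells, 90.6 CPM (72.4 to 112) in the Ccl5/Dntt cluster, 70.9 CPM (36.7 to 124) in the Vpreb3/Ung cluster and 29.7 CPM (9.65 to 69.4) in the Ccnb2/Cenpa cluster. In Pf4/Gp1bb cells it was at 4.99 CPM (0.605 to 18.0), from 2 UMIs in 31 cells, which did not differ beyond counting error from erythroid-like cells at 3.03 CPM. In the Id2-deleted library the Cd74/Iigp1 cluster stood highest at 136 CPM (117 to 157), with HSC-like cells at 100 CPM (62.7 to 152). The Vpreb3/Ung cluster was at 52.4 CPM (40.2 to 67.2), the Ccnb2/Cenpa cluster at 27.3 CPM (15.6 to 44.3) and Pf4/Gp1bb cells at 13.7 CPM (8.13 to 21.7). Pf4/Gp1bb cells thus had the lowest value of the retained clusters in both libraries, with an interval that overlaps that of the Ccnb2/Cenpa cluster in each. Neutrophil-like cells had 41.1 CPM (24.8 to 64.2) without and 13.8 CPM (6.60 to 25.3) with the deletion. Ly6a in empty droplets was 39.1 and 11.7 CPM. At the shares of free RNA estimated from haemoglobin UMIs in retained cells, 10.5% and 5.41%, free RNA would give 4.10 and 0.632 CPM of Ly6a. The share in neutrophil-like cells was not estimated.

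**Figure D1:**
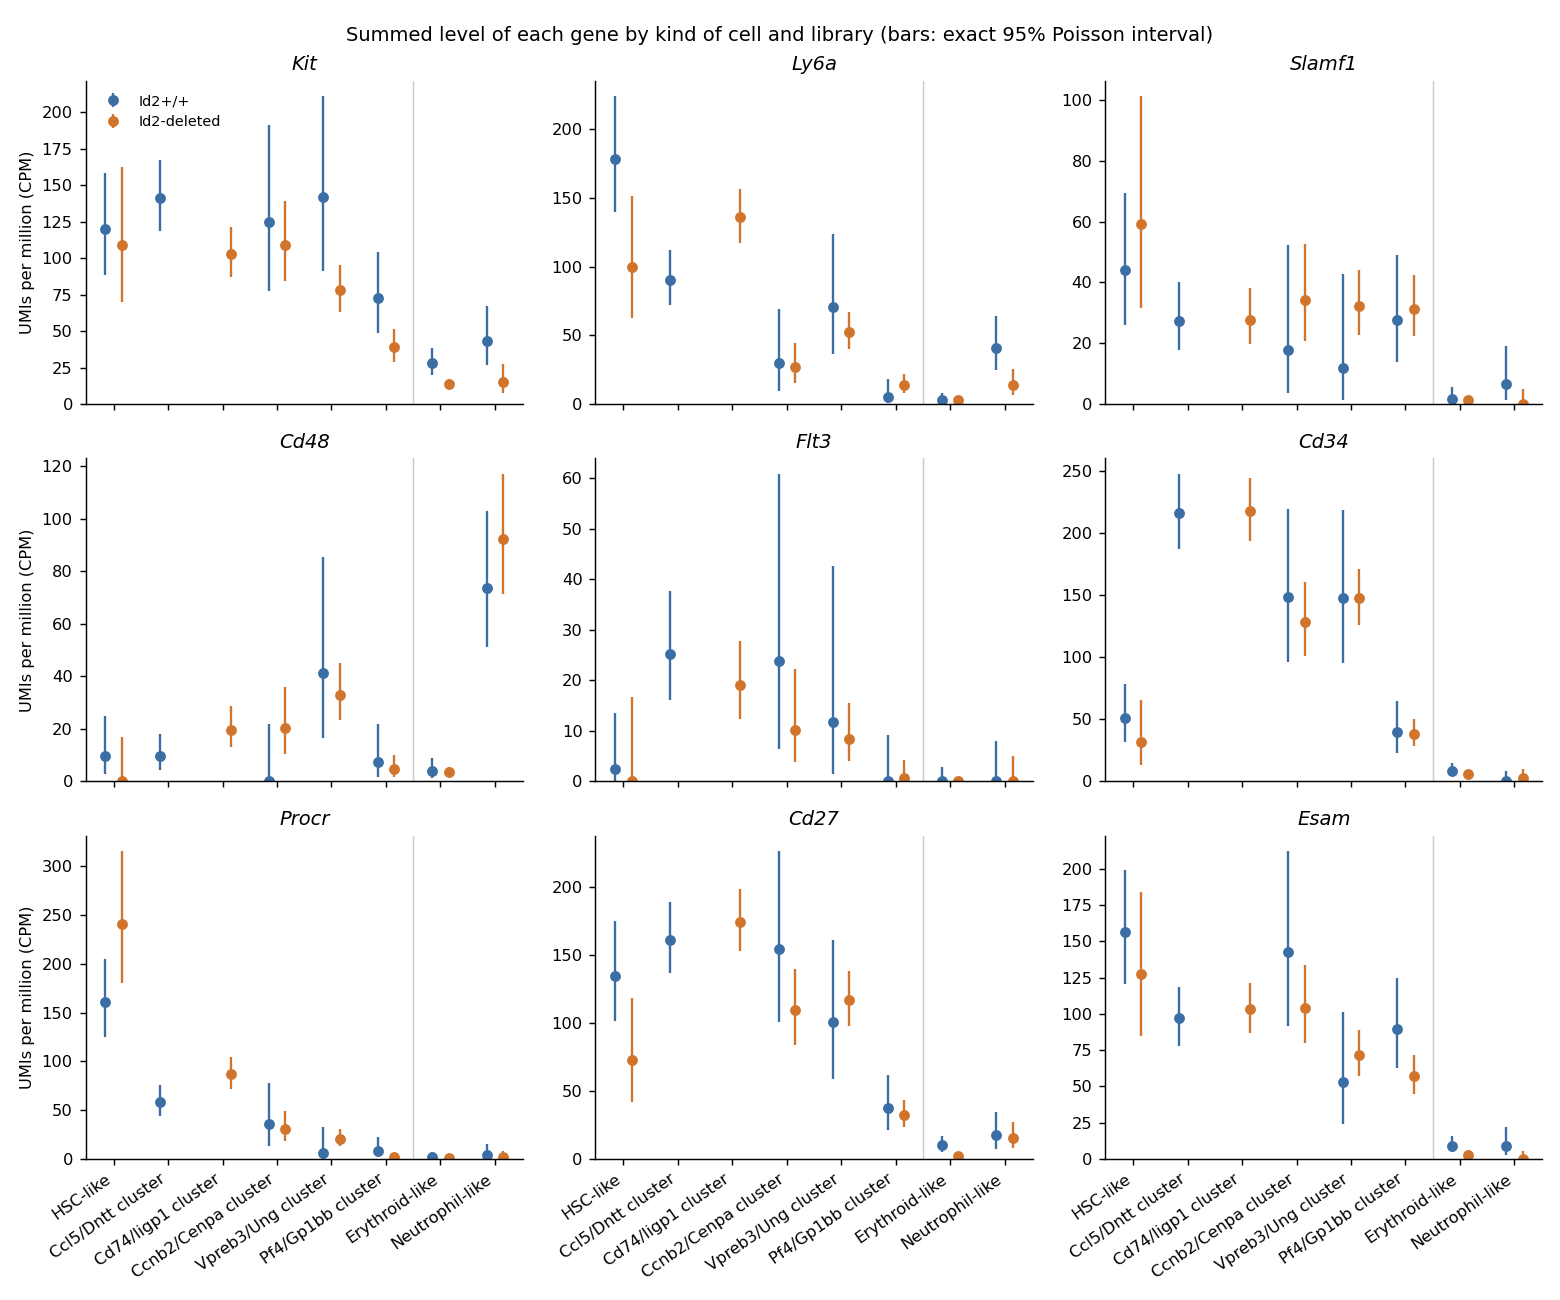
Level of each of the 9 genes in CPM (vertical axis, starting at 0) by kind of cell (horizontal axis) in the Id2+/+ (blue) and Id2-deleted (orange) libraries, as points with exact 95% Poisson intervals; kinds with fewer than 10 cells in a library have no point, and the grey line divides retained cells from other cells. Procr was highest in HSC-like cells (161 and 241 CPM), Cd34 was at 216 and 218 CPM in the Ccl5/Dntt and Cd74/Iigp1 clusters and at most 51.3 CPM in HSC-like and Pf4/Gp1bb cells, and Cd48 was highest in neutrophil-like cells (73.6 and 92.2 CPM).

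Slamf1, which encodes the positive SLAM marker CD150, was found in every retained cluster, with overlapping intervals. Id2+/+ HSC-like cells had 43.9 CPM (26.0 to 69.4), Pf4/Gp1bb cells 27.5 CPM (13.7 to 49.2) and the Ccl5/Dntt cluster 27.4 CPM (17.9 to 40.1), while the Ccnb2/Cenpa and Vpreb3/Ung clusters had 3 and 2 UMIs. The Id2-deleted cells had 59.2 CPM (31.5 to 101) in the HSC-like cluster, 34.1 CPM (20.8 to 52.7) in the Ccnb2/Cenpa cluster, 32.1 CPM (22.7 to 44.1) in the Vpreb3/Ung cluster, 31.3 CPM (22.4 to 42.4) in the Pf4/Gp1bb cluster and 27.8 CPM (19.7 to 38.1) in the Cd74/Iigp1 cluster. The HSC-like value was the highest in each library, but not beyond counting error. Outside the retained cells Slamf1 was near 0: erythroid-like cells had 2 UMIs in 35 cells and 9 in 156, and neutrophil-like cells 3 UMIs in 27 cells and 0 in 40.

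Cd48, which encodes a protein the gate excludes, was highest outside the retained cells. Neutrophil-like cells had 73.6 CPM (51.0 to 103) in Id2+/+ marrow and 92.2 CPM (71.5 to 117) after deletion, and 66.7% and 70.0% of them held a Cd48 UMI at their full depth. Among the retained cells the Vpreb3/Ung cluster, led by genes of early B lineage and of DNA replication, had the most, at 41.4 CPM (16.6 to 85.3) in 14 Id2+/+ cells and 33.0 CPM (23.5 to 45.1) in 96 Id2-deleted cells. The summed level of 6 B cell markers in this cluster was 319 and 49.1 CPM, against 73.1 and 42.7 CPM over all retained cells. The Ccnb2/Cenpa and Cd74/Iigp1 clusters of the Id2-deleted library were at 20.5 CPM (10.6 to 35.8) and 19.7 CPM (13.0 to 28.7), and the Ccl5/Dntt cluster of the Id2+/+ library at 9.48 CPM (4.33 to 18.0), and these intervals overlap that of the Vpreb3/Ung cluster in the same library, so the order does not hold beyond counting error. HSC-like cells had 4 Cd48 UMIs in 67 Id2+/+ cells and 0 in 28 Id2-deleted cells, where a count of 0 allows up to 13.7 CPM. Pf4/Gp1bb cells had 7.49 CPM (1.55 to 21.9) and 4.57 CPM (1.68 to 9.96). Cd48 was the only gene of the 9 whose level in Id2+/+ empty droplets, 15.3 CPM, exceeded that in retained Id2+/+ cells, 10.8 CPM. At the share of free RNA estimated from haemoglobin UMIs, 10.5% and 5.41%, free RNA would account for 14.9% of the retained Cd48 level in the Id2+/+ library and 2.67% in the Id2-deleted library. For the other 8 genes this share was between 2.10% and 7.73% in the Id2+/+ library and between 0.975% and 1.95% in the Id2-deleted library.

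Flt3, which encodes the other protein the gate excludes, had few UMIs in every cluster. It was at 25.3 CPM (16.2 to 37.6) in the Ccl5/Dntt cluster, from 24 UMIs in 126 Id2+/+ cells, and at 19.0 CPM (12.4 to 27.8) in the Cd74/Iigp1 cluster, from 26 UMIs in 161 Id2-deleted cells. The Ccnb2/Cenpa cluster had 23.8 CPM (6.48 to 60.9) and 10.2 CPM (3.76 to 22.3), and the Vpreb3/Ung cluster 11.8 CPM (1.43 to 42.7) and 8.46 CPM (4.06 to 15.6), all with overlapping intervals. HSC-like cells had 1 Flt3 UMI in 67 Id2+/+ cells and 0 in 28 Id2-deleted cells, and Pf4/Gp1bb cells 0 in 31 and 1 in 69. No Flt3 UMI was found in erythroid-like, neutrophil-like or haemoglobin-rich cells of either library. For 156 Id2-deleted erythroid-like cells a count of 0 allows up to 0.475 CPM.

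HSC-like cells were low for Cd34 and high for Procr. Cd34 was at 216 CPM (187 to 248) in the Ccl5/Dntt cluster and 218 CPM (194 to 244) in the Cd74/Iigp1 cluster, each almost wholly of a single library. It was at 149 and 128 CPM in the Ccnb2/Cenpa cluster and at 148 and 147 CPM in the Vpreb3/Ung cluster of the Id2+/+ and Id2-deleted libraries. HSC-like cells had 51.3 CPM (31.7 to 78.4) and 31.9 CPM (12.8 to 65.6), and Pf4/Gp1bb cells 40.0 CPM (22.8 to 64.9) and 38.1 CPM (28.3 to 50.3), so that HSC-like and Pf4/Gp1bb cells lay below the other retained clusters without overlap and did not differ from each other beyond counting error. Erythroid-like cells had 8.34 and 5.55 CPM, and neutrophil-like cells 0 UMIs in 27 Id2+/+ cells and 2 in 40 Id2-deleted cells. Procr was highest in HSC-like cells, at 161 CPM (125 to 205) and 241 CPM (181 to 315), followed by the Cd74/Iigp1 cluster at 87.0 CPM (72.0 to 104) and the Ccl5/Dntt cluster at 57.9 CPM (43.6 to 75.4). The Ccnb2/Cenpa cluster had 35.7 and 30.7 CPM, and the Vpreb3/Ung cluster 5.91 CPM (0.150 to 32.9) and 20.3 CPM (13.0 to 30.2). In Pf4/Gp1bb cells Procr was at 7.49 CPM (1.55 to 21.9) and 1.52 CPM (0.185 to 5.51), from 3 and 2 UMIs, which overlaps erythroid-like cells at 2.27 and 0.792 CPM. HSC-like cells thus had high Procr with low Cd34 and Pf4/Gp1bb cells were low for both.

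Cd27, a costimulatory receptor, was at 161 CPM (137 to 189) in the Ccl5/Dntt cluster, 155 CPM (101 to 227) in the Id2+/+ Ccnb2/Cenpa cluster and 134 CPM (101 to 175) in Id2+/+ HSC-like cells, with overlapping intervals. In the Id2-deleted library it was at 175 CPM (153 to 198) in the Cd74/Iigp1 cluster, 117 CPM (98.1 to 138) in the Vpreb3/Ung cluster, 109 CPM (84.1 to 139) in the Ccnb2/Cenpa cluster and 72.8 CPM (41.6 to 118) in HSC-like cells. Pf4/Gp1bb cells had the lowest values of the retained clusters, at 37.5 CPM (21.0 to 61.8) and 32.0 CPM (23.1 to 43.3), with intervals that just reach that of Vpreb3/Ung cells in the former library and of HSC-like cells in the latter. Esam, which encodes a junctional adhesion molecule, was found in every retained cluster. Pf4/Gp1bb cells had 89.9 CPM (63.0 to 124) in Id2+/+ marrow, against 156 CPM (120 to 199) in HSC-like and 96.9 CPM (78.1 to 119) in Ccl5/Dntt cells. After deletion they had 57.2 CPM (45.0 to 71.7), against 127 CPM (84.7 to 184) in HSC-like and 103 CPM (86.7 to 122) in Cd74/Iigp1 cells. The Ccnb2/Cenpa cluster had 143 and 104 CPM. The Vpreb3/Ung cluster had 53.2 CPM (24.3 to 101) and 71.9 CPM (57.4 to 88.9), with intervals that overlap those of Pf4/Gp1bb cells in both libraries. Erythroid-like cells had 9.10 and 2.85 CPM of Esam, and neutrophil-like cells 8.66 CPM and 0 UMIs.

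Haemoglobin-rich cells, 9 and 13 in number, held 1 UMI each of Kit, Slamf1 and Esam in the Id2+/+ library and 1 each of Kit and Esam in the Id2-deleted library. Compared with retained cells of the same library, erythroid-like cells were lower by 2-fold or more for 9 of 9 genes in both libraries. Among all genes tested 29.1% (Id2+/+) and 30.6% (Id2-deleted) were lower to this extent, and 9.65% and 9.53% were higher. The ratio to retained cells was 0.230 (0.159 to 0.326) and 0.172 (0.135 to 0.218) for Kit, 0.352 (0.104 to 0.946) and 0.203 (0.122 to 0.326) for Cd48, and under 0.1 for Ly6a, Slamf1, Cd34, Procr, Cd27 and Esam in both libraries. Against a floor of 3 counts over the erythroid-like cells of a library, Flt3 was at least 6.59-fold lower in Id2+/+ and at least 19.3-fold lower in Id2-deleted cells. Neutrophil-like cells were lower for 8 of 9 genes and higher for 1, Cd48, in both libraries. Here 32.5% and 34.7% of all genes tested were lower and 5.33% and 5.65% higher. Cd48 in neutrophil-like cells was 6.83-fold (3.91 to 12.1) and 5.14-fold (3.67 to 7.18) the retained level. Cd34 was at least 21.4-fold lower in Id2+/+ neutrophil-like cells, and Esam at least 20.2-fold lower in Id2-deleted ones, against the same floor. CPM is relative to all UMIs of a cell, and the median was 17880 UMIs in neutrophil-like cells and between 37392 and 41225 in the erythroid-like clusters. Per cell, Cd48 had 1.26 and 1.68 UMIs in neutrophil-like cells and 0.14 and 0.15 in erythroid-like cells, against 0.09 and 0.20 in retained cells.

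The question of the study was how HSCs without Id2 differ from Id2+/+ HSCs, and the summed levels of the 9 genes in retained cells were compared between the libraries for this. Kit had 260 UMIs in Id2+/+ cells, 122 CPM (108 to 138), and 375 in Id2-deleted cells, 80.0 CPM (72.1 to 88.6), a ratio of Id2-deleted over Id2+/+ of 0.657 (0.559 to 0.772). Flt3 had 32 UMIs (10.3 to 21.2 CPM) and 43 UMIs (6.64 to 12.4 CPM), a ratio of 0.612 (0.378 to 0.999). Cd48 had 10.8 CPM (23 UMIs) and 17.9 CPM (84 UMIs), a ratio of 1.66 (1.04 to 2.76). These 3 passed a fold of 1.5, so 2 of 9 genes were lower and 1 was higher, where 13.3% of all genes tested were lower and 3.76% higher. The other ratios were 0.732 (0.609 to 0.883) for Ly6a, 0.745 (0.597 to 0.932) for Procr, 0.772 (0.654 to 0.913) for Esam, 0.837 (0.721 to 0.974) for Cd27, 0.929 (0.807 to 1.07) for Cd34 and 1.14 (0.838 to 1.56) for Slamf1. The median log2 ratio of the 9 genes was -0.37, and that of all 10458 genes tested was -0.07. Scaling by trimmed mean of M-values moved all log2 ratios by 0.11 and by the median of ratios by 0.14, which left 1 and 0 genes past the fold in the lower direction and brought Cd34 to 1.02 with the latter. Of the genes past the fold among all genes tested, 77.9% were lower with library totals, 61.9% with trimmed means and 57.8% with the median of ratios. With each cell reduced to 5800 UMIs, as the mean over all possible reductions, 0 genes passed the fold in either direction: Kit had a ratio of 0.758, Flt3 of 0.938, Cd48 of 1.42, Slamf1 of 1.302 and Procr of 1.07. This left out 66 Id2+/+ cells with fewer UMIs, 30 of them HSC-like, and 0 Id2-deleted cells. The depth limit for calling cells was set in each library on its own, so the numbers left out also depend on that limit. With barcodes of at least 1000 UMIs and 500 genes called instead, 298 Id2+/+ and 530 Id2-deleted cells were retained. The cells kept for the reduction also had 0 genes past the fold at full depth, with ratios of 0.694 for Kit, 0.820 for Flt3 and 1.39 for Cd48.

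**Figure D2:**
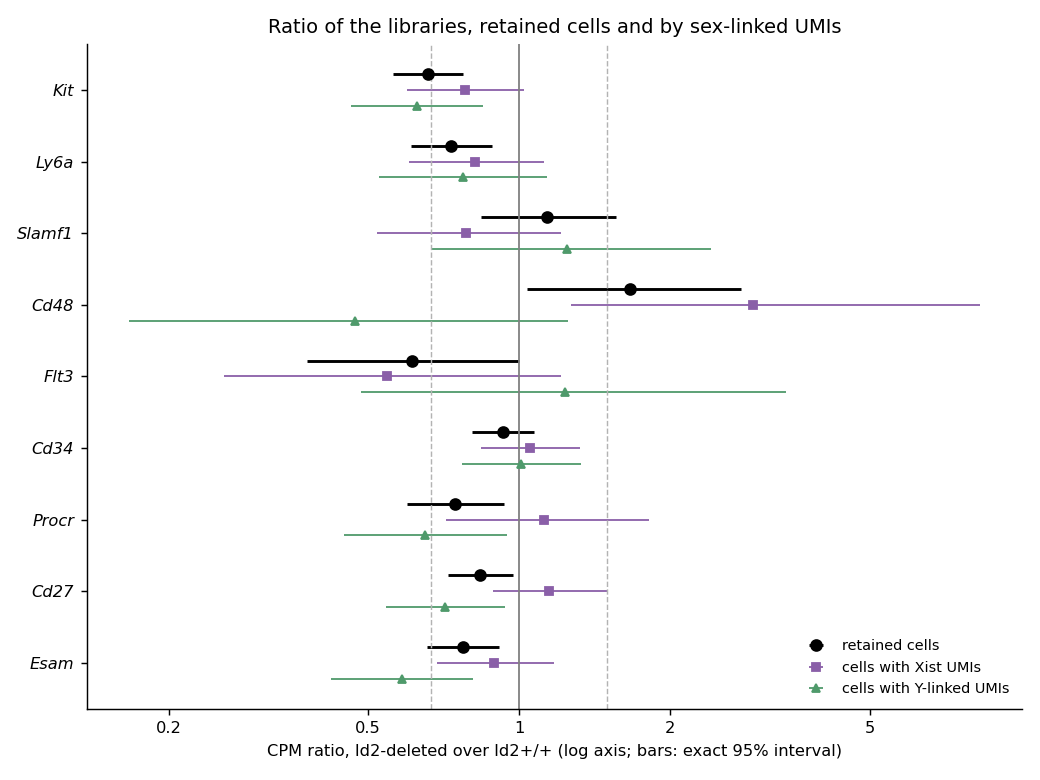
Ratio of CPM, Id2-deleted over Id2+/+, for each gene on a log axis, in all retained cells (black circles), in cells that held Xist but lacked Y-linked UMIs (purple squares) and in cells that held Y-linked but lacked Xist UMIs (green triangles), with exact 95% intervals; the solid line marks 1 and the dashed lines a fold of 1.5 in either direction. Kit lay at 0.657, 0.780 and 0.625, whereas Cd48 lay at 1.66, 2.93 and 0.471.

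Per cell, the values of some genes were closer between the libraries than in CPM and those of others were further apart. Retained cells had 0.99 Kit UMIs each in the Id2+/+ library and 0.90 in the Id2-deleted library, 0.72 and 0.73 Ly6a UMIs, 0.50 and 0.52 Procr UMIs and 0.88 and 0.94 Esam UMIs, but 0.09 and 0.20 Cd48 UMIs, 0.23 and 0.36 Slamf1 UMIs and 1.13 and 1.45 Cd34 UMIs, while the median cell had 7081 and 9663 UMIs in all. The per-cell values and medians also depend on the depth limit for calling cells, which was set in each library on its own. The makeup of the retained cells moved with the ratios between the libraries and its part in them was not tested. The summed level of the 11 HSC markers was 2422 CPM in Id2+/+ and 2043 CPM in Id2-deleted cells, with 2 of 11 lower by the fold. That of 8 platelet markers was 1391 and 2115 CPM, with 3 of 8 higher and Gp6 at 0 in both, and that of 7 markers of platelet-biased HSCs 1342 and 2082 CPM, with 5 higher. That of 10 neutrophil markers was 1073 and 641 CPM, with 4 lower and 1 higher, and that of 4 haemoglobin genes 956 and 612 CPM, with 3 lower. Of 13 erythroid markers, the haemoglobin genes among them, 5 were lower. Of 6 endothelial markers, a cell type that also carries Cd34, Procr and Esam, 1 had at least 20 UMIs and was lower, Cdh5 and Flt4 were at 0, and the sum was 39.8 and 19.6 CPM. Of 6 mast cell and basophil markers, cells that also carry Kit, 1 had at least 20 UMIs and was lower, Cpa3 at 14.1 and 4.91 CPM (ratio 0.349, 0.194 to 0.622), and the sum was 15.5 and 6.40 CPM. Without the Pf4/Gp1bb cluster Kit had a ratio of 0.720, short of the fold, Flt3 of 0.674, just short of it, and Cd48 of 2.003. Within that cluster Kit had a ratio of 0.537 (0.334 to 0.878) and Esam of 0.636 (0.422 to 0.974), whereas within HSC-like cells Kit had a ratio of 0.913 (0.536 to 1.52), Ly6a of 0.562 (0.332 to 0.916), Cd27 of 0.542 (0.290 to 0.960) and Procr of 1.497 (1.02 to 2.18). The Procr ratio was thus above 1 in HSC-like cells and below 1 over all retained cells. In the Vpreb3/Ung cluster Kit had a ratio of 0.548 (0.347 to 0.899), and in the Ccnb2/Cenpa cluster of 0.874 (0.527 to 1.51). The Cd48 ratio was 0.797 (0.353 to 2.11) in the Vpreb3/Ung cluster and 0.611 (0.130 to 3.77) in the Pf4/Gp1bb cluster, with 4 UMIs against 0 in HSC-like cells and 0 against 12 in the Ccnb2/Cenpa cluster, and the interval of each of these clusters holds 1 as well as the Cd48 ratio over all retained cells.

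To compare shares of cells at equal depth, each cell was reduced to 5800 UMIs, for which 66 of the 262 Id2+/+ and 0 of the 416 Id2-deleted cells were too shallow. A Kit UMI was then found in 49.1% (41.8 to 56.2) of Id2+/+ and in 39.3% (34.7 to 44.3) of Id2-deleted retained cells, against 61.1% and 57.2% at full depth. Ly6a was found in 32.1% (25.7 to 39.2) and 30.9% (26.6 to 35.7), Slamf1 in 13.7% (9.28 to 19.4) and 16.9% (13.4 to 20.8), Cd48 in 6.62% (3.58 to 11.1) and 8.53% (5.93 to 11.5), and Flt3 in 6.49% (3.58 to 11.1) and 6.25% (4.12 to 9.02). Erythroid-like cells at the same depth had Kit in 13.8% and 7.47% of cells, Cd48 in 1.93% and 2.29%, and Flt3 in 0 of 34 and 0 of 156 cells, which allows up to 8.82% and 1.92% of cells with a UMI. The Kit shares of retained cells, and the Flt3 share of Id2-deleted retained cells, were above those of erythroid-like cells without overlap of the intervals. The Cd48 intervals of erythroid-like cells, 0.0744% to 15.3% and 0.703% to 6.43%, overlap those of retained cells in both libraries, as does that of Flt3 in Id2+/+ cells. In CPM, where all cells and UMIs enter, both genes were lower in erythroid-like cells, as given above. Cd34 was found in 48.4% (41.3 to 55.7) and 48.8% (43.9 to 53.7), Procr in 24.2% (18.2 to 30.6) and 24.8% (20.7 to 29.2), Cd27 in 50.2% (42.8 to 57.2) and 46.7% (41.8 to 51.6), and Esam in 43.8% (36.8 to 51.1) and 38.4% (33.8 to 43.3). The intervals of the libraries overlap for each of the 9 genes. Among HSC-like cells the Procr share reached 52.4% (34.4 to 68.1) in the 37 Id2+/+ and 72.1% (51.3 to 86.8) in the 28 Id2-deleted cells, while in Pf4/Gp1bb cells it was 4.24% and 1.12%.

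**Figure D3:**
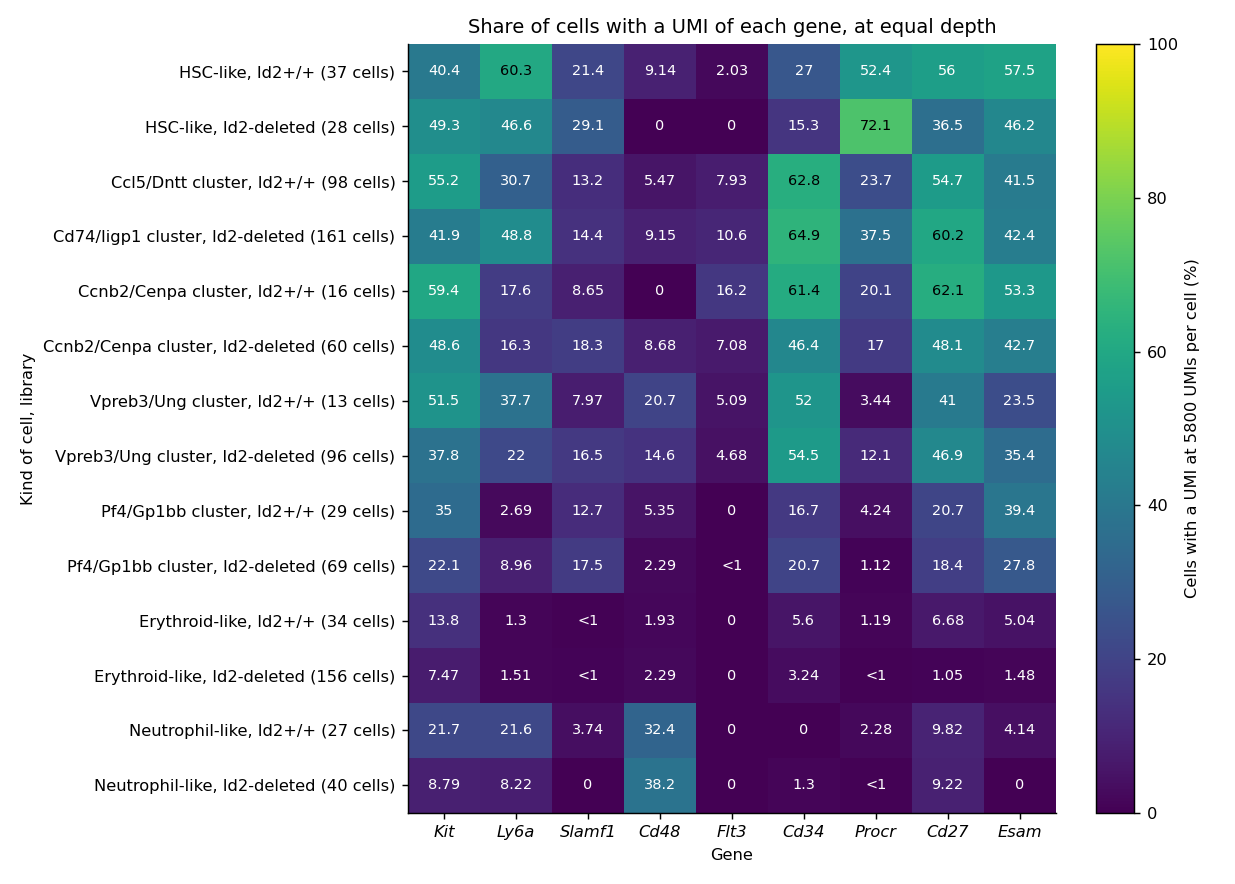
Share of cells with at least 1 UMI of each gene (columns) by kind of cell and library (rows, with the number of cells deep enough), every cell reduced to 5800 UMIs; the colour scale runs from 0 to 100% and shares above 0 and under 1% are written <1. HSC-like rows combine Procr at 52.4% and 72.1% with Cd34 at 27.0% and 15.3%, Pf4/Gp1bb rows have Esam at 39.4% and 27.8% with Ly6a at 2.69% and 8.96%, and neutrophil-like rows stand out for Cd48 at 32.4% and 38.2%.

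The pattern of the gate was then read in RNA. At 5800 UMIs a Kit UMI together with a Ly6a UMI was found in 15.8% (11.0 to 21.7) of Id2+/+ and 11.7% (8.84 to 15.3) of Id2-deleted retained cells. With a Slamf1 UMI in addition the shares were 2.74% and 2.09%, and with no Flt3 and no Cd48 UMI 2.70% (0.833 to 5.85) and 1.64% (0.679 to 3.44). A UMI of Cd48 or Flt3, whose proteins the gate excludes, was found in 12.7% (8.43 to 18.3) and 14.3% (11.2 to 18.2) of retained cells. Over 20 random reductions to this depth the complete pattern ranged from 1.02% to 3.06% and from 0.962% to 1.92%, and at full depth it was 4.96% and 4.57%. The steps that required a UMI removed nearly all cells, and those that required the absence of Flt3 and Cd48 took the share from 2.74% to 2.70% in Id2+/+ and from 2.09% to 1.64% in Id2-deleted cells. In HSC-like cells the complete pattern was found in 7.06% (1.70 to 21.9) of the 37 Id2+/+ and 4.84% (0.0904 to 18.3) of the 28 Id2-deleted cells, and in Pf4/Gp1bb cells in 0.235% and 0.694%. Of 35 and 156 erythroid-like cells 0 held UMIs of Kit, Ly6a and Slamf1 together at full depth, which by the floor of 3 counts allows up to 8.57% and 1.92% of cells. The small RNA count per gene and cell, between 0.09 Cd48 and 1.45 Cd34 UMIs in the average retained cell, limits any such pattern.

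**Figure D4:**
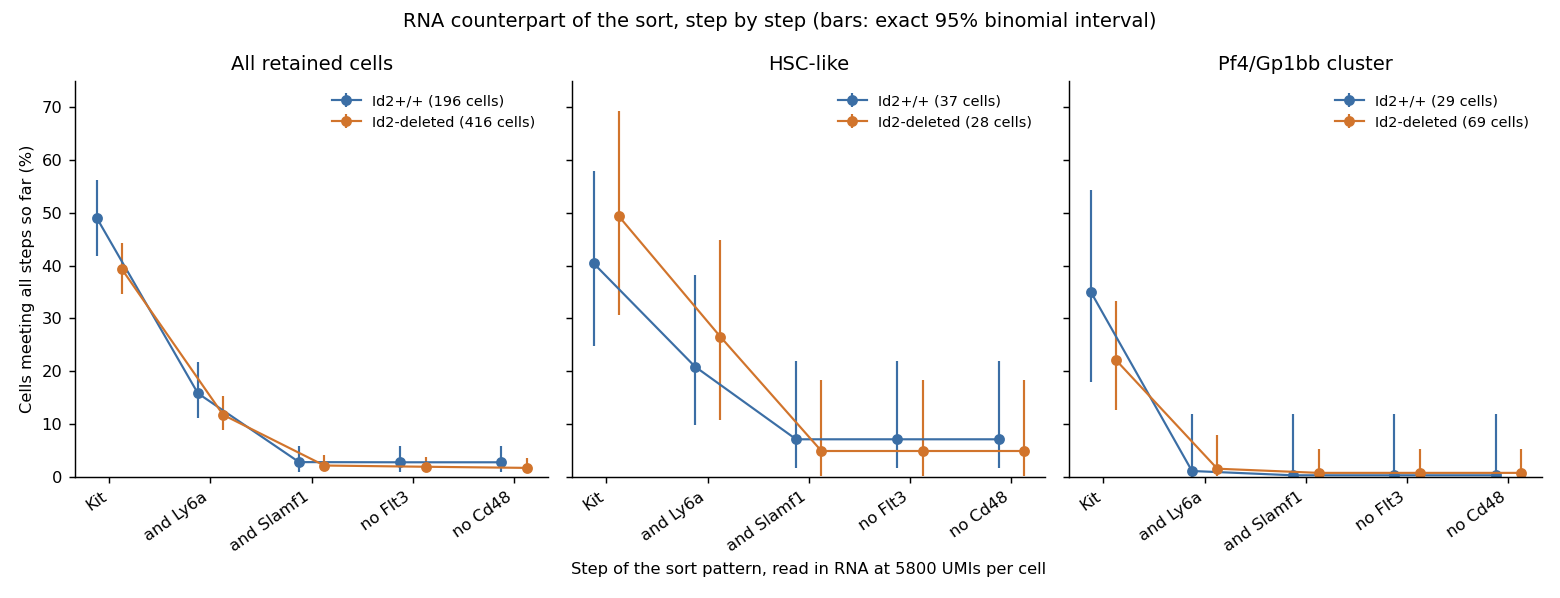
Share of cells meeting the steps of the sort pattern in RNA, each step added to those before it (horizontal axis, from a Kit UMI to the absence of Cd48), at 5800 UMIs per cell, in Id2+/+ (blue) and Id2-deleted (orange) cells, with exact 95% binomial intervals. Among all retained cells the share went from 49.1% and 39.3% with Kit alone to 2.70% and 1.64% at the last step, and in Pf4/Gp1bb cells it was at 1.05% and 1.48% once Ly6a was required.

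Within retained cells at this depth some of the genes were found together. Procr was found in 38.7% (26.1 to 51.2) of Id2+/+ cells with a Ly6a UMI and 17.4% (11.3 to 24.8) of those without. The shares were 37.1% (28.9 to 46.2) and 19.2% (14.8 to 24.2) after deletion, so the intervals do not overlap in either library. Cd34 in Id2-deleted cells was found in 59.2% (49.9 to 67.5) with and 44.2% (38.4 to 50.2) without a Ly6a UMI, and in Id2+/+ cells in 53.6% and 45.9%, with overlapping intervals in both libraries. For the SLAM pair no difference was detectable at this depth. Cd48 was found in 2.56% (0.0937 to 19.0) of Id2+/+ cells with a Slamf1 UMI and 7.27% (3.72 to 12.1) of those without, and the shares were 5.76% (1.58 to 14.0) and 9.09% (6.17 to 12.5) after deletion. Kit was found about as often with as without a Ly6a UMI, at 49.2% and 49.0% in Id2+/+ and 37.8% and 40.0% in Id2-deleted cells. The gate required both proteins.

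Related genes on lists chosen for their relation to the 9 were read in the same retained cells, against 13.3% of all genes lower and 3.76% higher by the fold. Of 7 further SLAM family genes 3 had at least 20 UMIs, with a median log2 ratio of -0.01, and none passed the fold. Cd84 was at 61.4 and 55.1 CPM (ratio 0.897, 0.724 to 1.12), Ly9 had a ratio of 0.991, Cd244, a receptor for CD48, had 5 and 15 UMIs, and Slamf7 and Slamf9 were at 0. Of 9 Ly6 family genes 2 had enough UMIs and 1 was lower. Ly6c2, a myeloid surface antigen, was at 34.7 CPM in Id2+/+ and 8.11 CPM in Id2-deleted cells (ratio 0.234, 0.154 to 0.350), and it stood at 3133 and 2958 CPM in neutrophil-like cells, and its part in this ratio was not tested beyond the neutrophil marker sums given above. Ly6e, a broadly expressed member, was at 416 and 426 CPM. The class III receptor tyrosine kinases Pdgfra, Pdgfrb and Csf1r, relatives of Kit and Flt3, had too few UMIs in retained cells, with Pdgfra at 0. Of 6 ligands or counter-receptors 3 had enough UMIs and 1 was higher. Selp (P-selectin, also a marker of the Pf4/Gp1bb cluster) was at 8.44 and 15.6 CPM (ratio 1.85, 1.09 to 3.29), the FLT3 ligand gene Flt3l was at 11.2 and 13.0 CPM, and Cd70, the ligand of CD27, and Proc were at 0.

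None of 12 other genes used to mark stem cells passed the fold, with 11 having enough UMIs, a median log2 ratio of -0.18 and Cdh5 at 0. Cd47, an inhibitor of phagocytosis, was at 512 and 541 CPM, the tetraspanin gene Cd9 at 303 and 347 CPM, and Itga2b, the integrin chain CD41, at 125 and 162 CPM (ratio 1.29, 1.12 to 1.49). Of 7 genes of lineage panel proteins 2 had enough UMIs and neither passed the fold: Ptprc, the common leukocyte antigen whose B220 form is stained, was at 56.7 and 57.8 CPM. Itgam had 1 and 6 UMIs, and Ly6g and Cd8a were at 0. The 4 Fc gamma receptor genes had too few UMIs in retained cells, with Fcgr4 at 0, whereas Fcgr3 was at 366 and 351 CPM in neutrophil-like cells. Of 12 interferon response genes, listed because interferon raises Ly6a, 11 had enough UMIs and 1 was lower, Rsad2 with a ratio of 0.603 (0.378 to 0.970), a gene named here after its value was seen. Ifitm3 was at 1016 and 1136 CPM and Bst2 at 136 and 161 CPM, so that both had ratios above 1, unlike Ly6a, and the list's median log2 ratio was 0.09. The summed interferon response level by cluster was 2053 and 2417 CPM in HSC-like cells and 1044 and 1292 CPM in Pf4/Gp1bb cells, and 1937 CPM in the Cd74/Iigp1 cluster.

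For each gene the genes of most similar pattern were found over 16 points, each a cluster of at least 10 cells in 1 library, by the correlation of log2(CPM + 10). The points share 2 libraries, so the correlations are descriptions. The points include erythroid-like, neutrophil-like and haemoglobin-rich clusters, where most of the 9 genes were lower than in retained cells. The correlations thus include the difference between retained and other cells and do not describe retained cells alone. Kit was most like Zfp36l2 (r = 0.982), Spns2 and Anxa4, and Ly6a most like Pik3ip1 (r = 0.947), Sash3 and Ebi3. For Slamf1 these were Scarf1 (r = 0.971), Serpina3g and Rhof, and for Cd48 the leukocyte genes Lair1 (r = 0.910), Ncf4 and Cd52. Outside the 9 genes, Flt3 was most like Flcn (r = 0.807) and Ctla2b (r = 0.790), and its correlation with Cd34 was higher (r = 0.88). Cd34 was most like Ctla2b (r = 0.952), Fchsd2 and Osbpl1a, and Procr most like Cnrip1 (r = 0.976), Gm4951 and Ccl4. Cd27 went with Adgrl4 (r = 0.975), Fchsd2 and Sox4, and Esam with Tmem176b (r = 0.980), Myct1 and Pear1. Among the 9 genes themselves Cd27 and Kit had the highest correlation (r = 0.95), followed by Slamf1 and Esam (r = 0.93) and Cd27 and Cd34 (r = 0.92), and Kit and Ly6a were at r = 0.81. Cd48 was between r = -0.20, with Esam, and r = 0.28, with Ly6a.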

How the data were processed

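The authors deposited, for each of 2 libraries, raw UMI counts per gene and barcode made with Cell Ranger 2.2.0 on mm10, per the submitters' processing notes. The counts carry no normalization and no call of cells. In each library on its own, the 99th percentile of depth among the 1000 deepest barcodes was taken, so the depth limit was not common to the libraries. Barcodes reaching 10% of it were called cells (349 Id2+/+, 632 Id2-deleted), and those under 10% mitochondrial UMIs were kept. Barcodes of 1 to 100 UMIs served as empty droplets. The kept cells were clustered together with scanpy 1.11.5 (2000 variable genes without the 9 described, 20 components, 15 neighbours, Leiden, resolution 1). Clusters with at least 4 raised markers of erythroid or neutrophil cells and lower HSC markers were set aside. A retained cluster was called by the class, HSC, activated HSC or platelet-biased HSC, with most raised markers if at least 3 were raised. No doublets were removed in the reported values.

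UMIs were summed per library as CPM with exact Poisson intervals. Ratios have the exact conditional interval and shares the exact Clopper-Pearson interval, with the number of cells rounded. Shares and ratios at 5800 UMIs, the rounded 10th percentile of retained depth, are the exact mean over all possible random reductions, with each cell weighted equally. The planned single draw was replaced by this after it was seen to put Cd34 in Id2+/+ cells outside the range of 20 further draws. Genes tested had at least 20 UMIs over both sides, and calls were folds of 1.5 between genotypes and 2 between kinds of cell. Limits for a count of 0 use 3 counts. All 9 genes are named, with the up to 3 highest of each related list that had at least 20 UMIs, genes at 0 or singled out in the text being exceptions, and the 3 most correlated genes of each. Some genes this rule would name are not reported here. The 9 genes, lists and thresholds were chosen with earlier results of these data known. The ratio's interval was tested on simulated counts. Alternatives covered the calling and removal of cells, scaling (edgeR 4.0.16 for trimmed means), depth, clustering and subsets of cells.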

Additional observations from a re-analysis of the deposited data

Results flagged for a closer look

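Both libraries held cells with Xist UMIs and cells with Y-linked UMIs: 84 and 231 retained cells had Xist and no Y-linked UMI in the Id2+/+ and Id2-deleted libraries, and 93 and 90 the reverse. For 5 of the 9 genes the Id2-deleted over Id2+/+ ratio lay on opposite sides of 1 in the subsets, and this difference was not tested. For Cd48 it was 2.93 (1.27 to 8.29) in the Xist subset and 0.471 (0.167 to 1.25) in the Y-linked subset, from 6 and 59 UMIs in the former and 12 and 8 in the latter. Slamf1 was at 0.784 and 1.25, Flt3 at 0.546 and 1.24, Procr at 1.12 and 0.650, and Cd27 at 1.15 and 0.713. Kit, Ly6a and Esam were below 1 in both subsets, and Cd34 was at 1.05 and 1.01.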

How the results depend on the processing

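Over the alternatives run, 151 ratios of single genes stayed close to the reported value, 25 moved further and 4, of genes past the fold, crossed 1. Ratios short of the fold also crossed 1: Slamf1 went to 0.813 with no cluster removed and 0.784 in cells with Xist UMIs, Procr to 1.07 at equal depth as the mean over all reductions and 1.05 in a single random one, 1.12 in cells with Xist UMIs and 1.497 in the HSC-like cluster, and Cd27 to 1.15 in cells with Xist UMIs, and Cd34, at 0.929, to between 1.01 and 1.05 in 4 settings and marginally with trimmed means. Of the counts of genes 78 stayed within 1.5 times and 18 did not, the latter all between genotypes. Of the shares of single genes 95 stayed within their interval and 67 did not, and of those of the gate pattern 13 and 5. The ratios of Kit, Ly6a and Esam were under 1 in every alternative run. The count of 2 genes lower by the fold between genotypes was 1 with trimmed means, with the mean of each cell's CPM, with as many cells as the labels give and in cells with Xist UMIs. It was 0 with the median of ratios, at equal depth, with barcodes of at least 1000 UMIs and 500 genes and without the Pf4/Gp1bb cluster. Kit and Flt3 fell short of the fold at 0.683 and 0.716 with these barcodes and at 0.720 and 0.674 without the cluster. The count was also 0 in the cells of at least 5800 UMIs at full depth. A single random reduction had Slamf1 at 1.58, past the fold, and Kit at 0.811, against 1.302 and 0.758 as the mean over all reductions. Of all genes, the share lower and higher by the fold was 13.3% and 3.76% with at least 20 UMIs, 9.41% and 2.69% with at least 50, and 23.0% and 13.3% with at least 1. With at least 1 UMI, 8.83% of genes were higher in Id2+/+ neutrophil-like than retained cells, against 5.33%. The count of lower genes was 4 in cells with Y-linked UMIs, 5 in the HSC-like cluster alone, of which Cd48 and Flt3 rest on 4 and 1 UMIs against 0, and 6 with no cluster removed. The count of 1 gene higher was 0 with no cluster removed, at equal depth as the mean over all reductions, in the cells of at least 5800 UMIs at full depth, in cells with Y-linked UMIs and in the HSC-like cluster alone. The Cd48 ratio of 1.66 reversed to 0.947 with no cluster removed, to 0.471 in cells with Y-linked UMIs and to 0 in the HSC-like cluster, where Id2-deleted cells had no UMI and the interval, 0 to 2.82, holds 1.66, and Flt3 reversed to 1.24 in cells with Y-linked UMIs. The complete gate pattern was 4.57% of Id2-deleted cells without reduction, 0.615% and 0.423% at 3000 UMIs, and 0.204% and 0.0120% with at least 2 UMIs required. The cause of these changes was not tested, except that fewer UMIs leave fewer detected genes. The alternatives on the HSC-like and Pf4/Gp1bb clusters, the mean over all reductions, and the cells of at least 5800 UMIs at full depth, were chosen after the data were seen. No paired analysis was possible because either genotype had a lone library. Few UMIs limit the ratios of Cd48 and Flt3.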
